A study of Macaca fascicularis with 6 samples.

Results

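TXNIP and PCK1 are 2 of the 14623 genes counted in corneal epithelial cells of cynomolgus monkeys (Macaca fascicularis), and they were followed here because both are abundant in the uninjured epithelium and nearly absent from it 1 day after a corneal injury. The samples were wild type (genotype WT in the labels) and fall into 3 groups of 2: uninjured (day 0), and the 1-day and 3-day healing stages after corneal injury. Cells were captured with the 10x Genomics system and read as whole transcripts by HIT-scISOseq. The labels give neither the kind of wound nor the age of the animals, and they do not tie replicates to separate animals, so the p-values cover a spread that may be only technical. Both genes were chosen by their low counts after injury compared with uninjured samples, and their injured against uninjured levels are therefore given as a description without a test.

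TXNIP encodes thioredoxin-interacting protein, an alpha-arrestin that binds thioredoxin and lowers glucose uptake by removing the transporter GLUT1 from the cell surface. Its transcription is known to follow glucose through the factors MondoA and ChREBP with their partner MLX. PCK1 encodes the cytosolic phosphoenolpyruvate carboxykinase, which makes phosphoenolpyruvate from oxaloacetate, the committed step of gluconeogenesis in liver and kidney and of glyceroneogenesis in fat. In liver its transcription is raised by cyclic AMP, glucocorticoids, FOXO1 and the coactivator PGC-1alpha, and lowered by insulin.

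The 6 gene tables held 7895 cell barcodes and between 3733442 and 4928103 counts per sample. Median counts per barcode were 2462 and 3023 (uninjured), 3258 and 2931 (day 1), and 4447 and 4145 (day 3), so barcodes of the day 3 samples were read most deeply. Libraries shared between 0 and 2 barcode sequences per pair. Of the 623 injured barcodes with a TXNIP count and the 32 with a PCK1 count, 0 had a barcode sequence that also occurred in an uninjured library. Summed levels of the markers of other cell types, as CPM (counts per sample scaled to a common total), were 23.2 and 53.5 when uninjured, 83.0 and 71.8 at day 1 and 18.0 and 27.3 at day 3 for an immune list with 6 of 7 genes in the tables. For a melanocyte list (6 of 6 genes) they were 74.4 and 97.8, 20.9 and 30.3, and 31.1 and 21.4. For a keratocyte and fibroblast list (6 of 7 genes) they were 643 and 499, 189 and 183, and 700 and 695, with no count of COL1A2, COL3A1, LUM, KERA and PDGFRA in the uninjured samples. CD3E had no count in any sample, a vascular list (4 of 5 genes) summed to at most 5.28 CPM, and 0 of 4 red blood cell genes were in the tables. Of the epithelial markers, KRT12 and KRT3 of the cornea and KRT4 and KRT19 of the conjunctiva were counted in every sample. Mitochondrial genes took 9.12% and 9.32% of counts when uninjured, 7.23% and 7.28% at day 1, and 4.52% and 4.39% in the day 3 samples. Some genes of these lists also marked epithelial clusters, which are described below. KIT of the melanocyte list marked the uninjured KRT12-led cluster, with 123 and 147 CPM in uninjured cells with PCK1 against 37.3 and 38.4 CPM in those without. DCN of the keratocyte and fibroblast list marked the uninjured GPHA2-led cluster. The list sums are thus no measure of other cell types alone. What part other cell types, or the mitochondrial share, had in the levels of TXNIP and PCK1 was not tested.

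TXNIP was far lower at day 1 than in the uninjured epithelium and lay between these levels at day 3. It had 3488 and 3533 counts when uninjured, 78 and 61 at day 1, and 413 and 352 at day 3. Scaled to library size by TMM, these were 695 and 616 CPM when uninjured, 17.2 and 16.9 CPM at day 1, and 95.1 and 86.3 CPM at day 3. The groups did not overlap: both day 1 samples lay lowest, both day 3 samples between, and both uninjured samples highest. The mean was 656 ± 55.7 CPM when uninjured, 17.1 ± 0.186 CPM at day 1 and 90.7 ± 6.22 CPM at day 3 (SD, n = 2 each), so the day 1 mean was 2.60% and the day 3 mean 13.8% of the uninjured one. In counts summed over a sample, fewer cells of a type and less RNA per cell cannot be told apart.

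TXNIP was 5.31-fold higher at day 3 than at day 1 (log2 change 2.41). The low day 1 level is part of what chose the gene, so this difference is a description as well and carries no test. The median log2 change of all 12294 tested genes between these days was 0.02, and 59.3% of them were called by edgeR's quasi-likelihood test with Benjamini-Hochberg adjustment over all genes.

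PCK1 was lower still after injury. It had 18 and 20 counts at day 1, against 1244 and 1698 in the uninjured samples, and neither day 3 gene table had a row for it. Scaled by TMM, PCK1 had 3.97 and 5.55 CPM at day 1, against 248 and 296 CPM when uninjured, with means of 4.76 ± 1.12 CPM at day 1 and 272 ± 34.2 CPM when uninjured (SD, n = 2 each). The day 1 mean was 1.75% of the uninjured one, and no day 1 sample came near an uninjured one. Rows for genes seen in fewer than 5 barcodes made up 3.64% of both day 3 gene tables, so a missing row can stand for a few counts and sets no upper limit of its own.

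The isoform tables of day 3 also keep rare features, and list 5875 and 6038 isoforms seen in a single barcode. They held 0 PCK1 counts among 2166030 and 2007273 counts, which allows levels of up to 1.39 and 1.49 CPM (3 counts; counting error only). These tables covered 701 of 1096 and 679 of 1068 barcodes of the gene tables. No fold or test between the days after injury is given for PCK1, because a missing row has no known count.

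**Figure D1:**
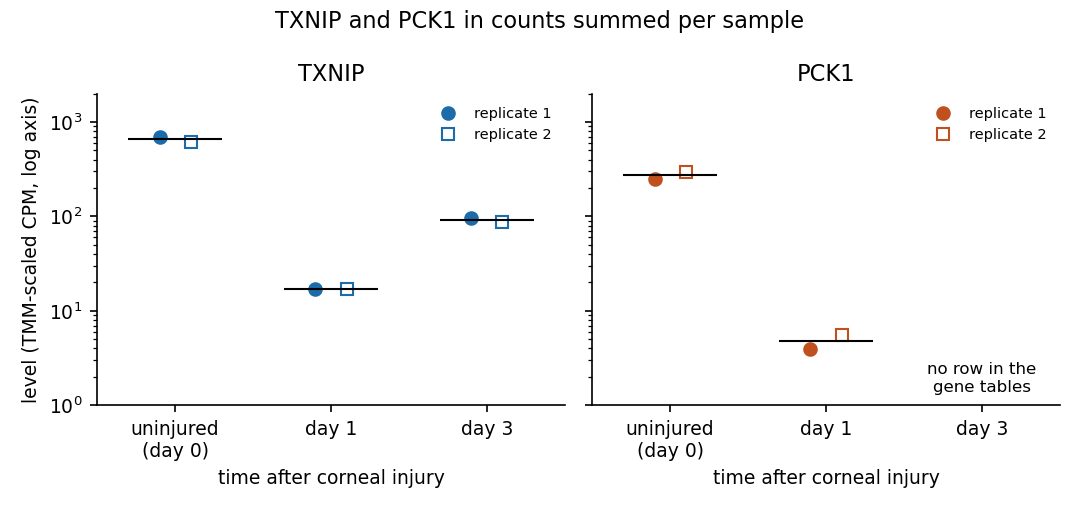
Level of TXNIP (left) and PCK1 (right) in counts summed per sample, in TMM-scaled CPM on a log axis; each point is 1 sample and the line is the mean of 2. TXNIP averaged 656 CPM uninjured, 17.1 CPM at day 1 and 90.7 CPM at day 3, while PCK1 averaged 272 CPM uninjured and 4.76 CPM at day 1 and had no row in the day 3 gene tables.

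After injury both the share of cells with a count and the count per cell were lower. TXNIP was counted in 71.1% and 72.6% of uninjured barcodes, 3.85% and 3.39% at day 1, and 25.5% and 22.8% at day 3. Exact 95% binomial intervals, which cover counting error only, ran from 68.8 to 73.4% and from 70.2 to 74.9% when uninjured, from 2.93 to 4.95% and from 2.47 to 4.54% at day 1, and from 22.9 to 28.1% and from 20.4 to 25.5% at day 3. The order was the same after every barcode was thinned to 1000 counts, with 49.7% and 49.3%, 1.36% and 1.58%, and 8.30% and 7.90% of barcodes. At equal depth uninjured samples were again highest and day 1 samples lowest.

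In the uninjured samples 540 and 508 barcodes held 3 or more TXNIP counts and the highest held 19 and 25. At day 1 only 3 and 5 barcodes held 3 or more, out of 57 and 43 with any. At day 3 it was 30 and 19 of 279 and 244, and the highest barcodes held 7 and 6 counts. The mean over barcodes with a count was 3.13 and 3.43 when uninjured, 1.37 and 1.42 at day 1, and 1.48 and 1.44 at day 3. A mean over barcodes with a count cannot fall below 1, so at these low shares it does not separate more cells with TXNIP from more TXNIP per cell.

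PCK1 was counted in 1.21% and 1.10% of day 1 barcodes, against 22.7% and 25.8% of uninjured ones. After thinning it was counted in 0.214% and 0.350% at day 1, against 14.6% and 16.7% when uninjured. At day 1 all 18 barcodes of replicate 1 held a single count. In replicate 2, 11 of 14 barcodes held 1 count, 2 held 2, and 1 barcode held 5. Uninjured barcodes with PCK1 held 3.50 and 4.65 counts on average and up to 21 and 25.

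**Figure D2:**
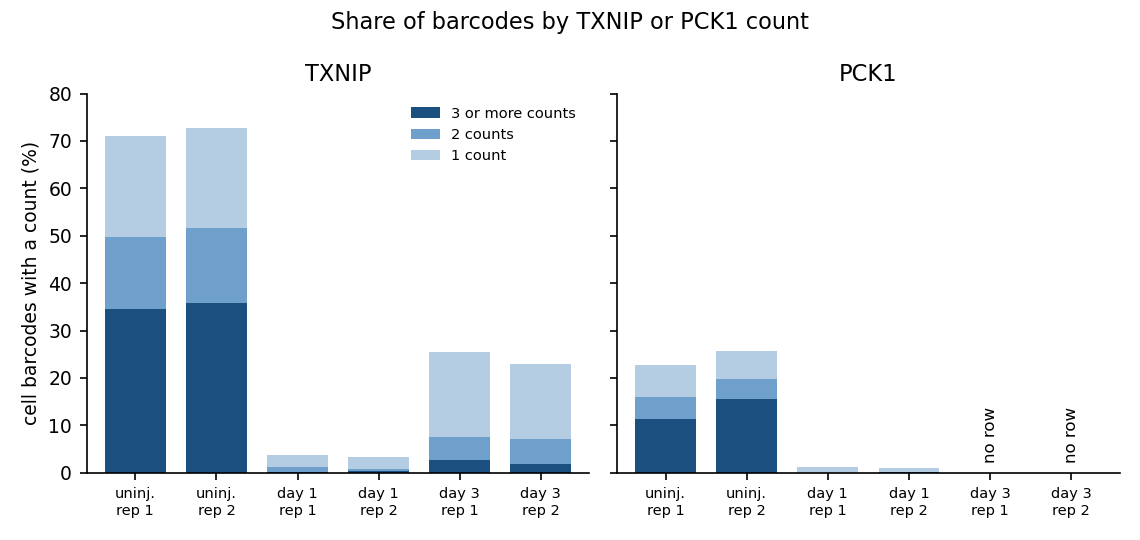
Share of cell barcodes of each sample (in percent) with 1, 2, or 3 or more counts of TXNIP (left) and PCK1 (right); the rest of each sample's barcodes had none. TXNIP was seen in over 70% of uninjured barcodes, mostly with several counts, and in 25.5% and 22.8% of day 3 barcodes, mostly with 1.

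To see which cells hold the genes, barcodes of each day were clustered with TXNIP and PCK1 left out, and clusters were named from marker lists where enough markers fit. When uninjured, the genes sat in largely different cell states. TXNIP was highest in a GPHA2-led limbal and basal-like cluster (1167 barcodes; also KRT14 and KRT15) and in a KRT4-led conjunctival-like cluster (487 barcodes; also KRT19 and AQP5). GPHA2 is a marker of limbal stem cells, and KRT4 and KRT19 are keratins of the conjunctiva. The name of the KRT4-led cluster rests on part of the conjunctival list. KRT7 and MUC1 did not mark it, and KRT13, MUC4 and PSCA had no count in any sample. KRT6A and PLAUR of a wound-edge list marked it too. PCK1 was highest in the KRT12-led corneal differentiated-like cluster (703 barcodes; also KRT3 and ALDH1A1), where TXNIP was lowest among the clusters of more than 30 barcodes. KRT24, ALDH3A1, CLU and KRT5 of the corneal list did not mark that cluster.

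TXNIP reached 1394 and 1261 CPM of the summed counts in the GPHA2-led cluster and 1373 and 1220 CPM in the KRT4-led cluster of replicates 1 and 2. These neighbours in the order did not differ beyond their spread. It reached 519 and 390 CPM in a second limbal and basal-like cluster, led by SPARC and marked by COL17A1, ITGB4 and CXCL14 (403 barcodes). GPHA2, KRT14, KRT15, TP63 and ITGA6 of the same list did not mark this cluster. ALDH3A1 and CLU of the corneal differentiated list did, so its name rests on basal markers and is not clear-cut. An unnamed cluster led by PLAC8 and KRT24 (196 barcodes) had 482 and 412 CPM, which overlaps the SPARC-led cluster. The corneal differentiated-like cluster had 247 and 277 CPM, below all of these. A cycling-like cluster of 26 barcodes gave 345 and 335 CPM from 10 and 33 counts. The GPHA2-led cluster held 41.9% and 35.1% of all TXNIP counts of replicates 1 and 2, and the KRT4-led cluster 33.8% and 40.1%.

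PCK1 reached 713 and 861 CPM in the corneal differentiated-like cluster, which held 71.2% and 75.2% of all PCK1 counts in 23.2% and 24.0% of the barcodes. The SPARC-led basal-like cluster had 414 and 392 CPM, and the PLAC8-led cluster 190 and 206 CPM. The small cycling-like cluster had 553 and 811 CPM from 16 and 80 counts, in a range that overlaps the corneal differentiated-like one. The KRT4-led conjunctival-like cluster had 3.50 and 7.76 CPM. In the GPHA2-led cluster PCK1 was counted in 0 of 638 barcodes, which allows a share of up to 0.470%, and in 1 of 529.

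These shares also bound the background of free PCK1 RNA in the GPHA2-led cluster, at median depths of 1524.5 and 1758 counts per barcode. The bound need not hold for deeper barcodes. In the KRT4-led cluster, at medians of 3106 and 3918.5 counts, PCK1 was counted in 0.844% and 3.2% of barcodes (0 and 1.22% after thinning to 1000 counts). The corneal differentiated-like cluster was read more deeply (medians of 3414 and 4391.5) and had PCK1 in 63.6% and 69.4% of barcodes. After thinning to 1000 counts it was still 39.6% and 48.3%, against 0 in both replicates of the GPHA2-led cluster.

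**Figure D3:**
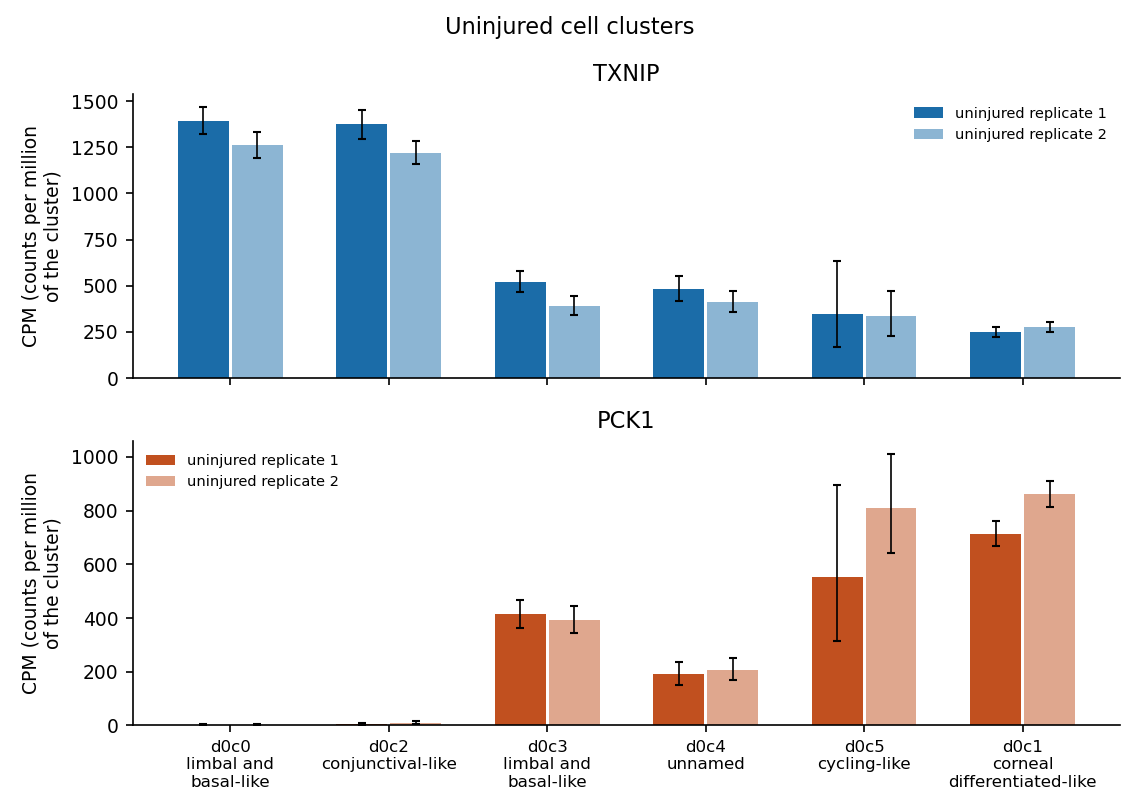
TXNIP (top) and PCK1 (bottom) in the 6 uninjured cell clusters, in CPM of each cluster's summed counts; bars are the 2 replicates and error bars exact 95% Poisson intervals (counting error only). TXNIP exceeded 1200 CPM in the GPHA2-led (d0c0) and KRT4-led (d0c2) clusters, where PCK1 stayed below 8 CPM, and PCK1 was at 713 and 861 CPM in the KRT12-led cluster (d0c1).

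Within single uninjured barcodes the genes were seen together less often than the product of their shares gives. Of 1565 and 1417 barcodes, 163 and 202 held both, against 252.5 and 265.1 from the product. Thinned to 1000 counts, 43 and 45 held both, against 107.9 and 110.8. Inside the corneal differentiated-like cluster alone 84 and 120 held both, against 100.5 and 121.5, and after thinning 19 and 21, against 28.5 and 32.4. The shortfall in replicate 2 of this cluster was thus seen after thinning and was about absent with all counts. In the SPARC-led cluster 51 and 39 held both, against 53.8 and 41.9, and after thinning 20 and 17, against 22.8 and 15.6. These counts are a description and were not tested.

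By a rule of likeness over 10 sums (5 uninjured clusters by 2 replicates, log2 of CPM plus 1, 6592 candidate genes), the genes distributed most like TXNIP were C2CD4B (r = 0.973), DHRS7, C11orf49, RNASET2 and the unnamed ENSMFAG00000042086 (r = 0.951). C2CD4B had 42.0 and 74.2 CPM in the GPHA2-led cluster and 0.805 and 0.674 CPM in the corneal differentiated-like one. RNASET2, a ribonuclease, had 252.7 and 258.3 CPM in the GPHA2-led cluster, against 65.2 and 87.6 CPM in the corneal differentiated-like one.

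The genes most like PCK1 were SEC16B, TOM1L1, RAD21, STK35 and ALDH1A1, with r between 0.982 and 0.984. ALDH1A1, a retinaldehyde dehydrogenase and corneal crystallin, had 4785 and 4522 CPM in the corneal differentiated-like cluster and 392.9 and 442.4 CPM in the GPHA2-led one. The 10 sums come from 2 libraries and are not independent, so these names are a description.

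At day 1 most PCK1 counts were again in corneal differentiated-like cells. All 18 counts of replicate 1 and 17 of the 20 counts of replicate 2 fell in the KRT3- and KRT12-expressing cluster, which held 41.1% and 41.9% of the barcodes. Its level there was 8.37 and 9.98 CPM, against 713 and 861 CPM in the corneal differentiated-like cluster of uninjured samples. The other 3 counts lay in 2 barcodes, 1 wound-edge-like and 1 limbal and basal-like. The barcodes with PCK1 had 23923 and 26778 CPM of KRT12, against 12395 and 13860 CPM in those without, and 16.9 and 137.8 CPM of KRT14 against 1231 and 1296 CPM. With 18 and 14 barcodes these are sums over few cells, and no test was made. PCK1 was counted in 2.96% and 2.26% of the barcodes of the day 1 corneal differentiated-like cluster, beside 0.844% and 3.2% in the uninjured KRT4-led cluster. What part free RNA had in these counts was not tested.

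TXNIP at day 1 lay mostly outside the corneal differentiated-like cells. That cluster had 0 counts in 2149682 in replicate 1 and 8 counts (4.70 CPM) in replicate 2, against 247 and 277 CPM in its uninjured counterpart. The limbal and basal-like cluster with CXCL14 had 4.89 and 6.18 CPM from 3 counts each. The wound-edge-like cluster (markers including VIM, KRT16 and MMP10) had 32.6 and 23.2 CPM, and the KRT4-led conjunctival-like cluster 43.3 and 27.5 CPM. An unnamed cluster with SCGB3A1 and PIGR among its leading genes had 16.4 and 66.4 CPM from 6 and 17 counts, so its replicates stood far apart. No cluster at day 1 reached the lowest uninjured cluster.

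At day 3 TXNIP was highest in the conjunctival-like cluster led by VMO1 (KRT7, KRT19, MUC1, AQP5), at 203 and 150 CPM. An unnamed cluster with COL1A1, FN1 and TNC had 145 and 138 CPM, with 95% counting intervals that overlap those of the conjunctival-like cluster. The limbal and basal-like cluster had 82.0 and 96.3 CPM, a KRT78-led unnamed cluster 75.8 and 68.5 CPM and a KRT4-led unnamed cluster 53.8 and 63.3 CPM. The corneal differentiated-like cluster had 52.1 and 37.4 CPM, and a cycling-like cluster 58.5 and 33.0 CPM; these did not differ beyond their spread.

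Set side by side by class, TXNIP in corneal differentiated-like cells was 247 and 277 CPM when uninjured, 0 and 4.70 CPM at day 1, and 52.1 and 37.4 CPM at day 3. In the CXCL14-marked limbal and basal-like cells it was 519 and 390, 4.89 and 6.18, and 82.0 and 96.3 CPM. In conjunctival-like cells it was 1373 and 1220, 43.3 and 27.5, and 203 and 150 CPM. The day 3 cluster of that name was led by VMO1, RARRES1 and PIP, while the KRT4-led unnamed cluster of day 3, at 53.8 and 63.3 CPM, shares KRT4, GSTA3 and S100A9 among its leading genes with the conjunctival-like clusters of the other days. In each of these classes TXNIP was highest when uninjured and lowest at day 1, with either of these day 3 clusters. The GPHA2-led cluster had no counterpart among the injured clusters: GPHA2 had 1.32 and 2.50 CPM at day 1 and no row at day 3. Names were rebuilt for each day from markers that themselves change, so a class need not hold the same cells on each day.

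**Figure D4:**
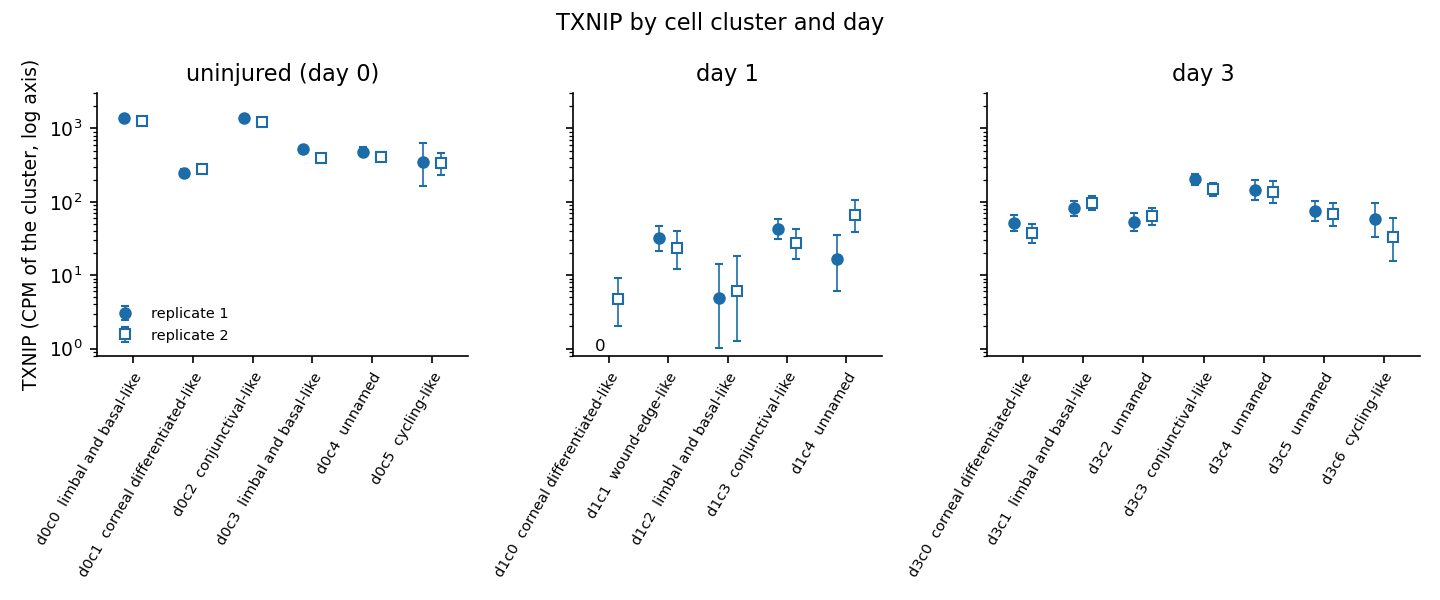
TXNIP by cell cluster in uninjured, day 1 and day 3 samples, in CPM of each cluster on a log axis; points are the 2 replicates, bars exact 95% Poisson intervals (counting error only), and 0 marks a cluster without a count. Uninjured clusters lie between 247 and 1394 CPM, day 1 clusters at or below 66.4 CPM, and day 3 clusters between 33.0 and 203 CPM.

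Injured cells with a TXNIP count were compared with the other cells of the same sample: 57, 43, 279 and 244 barcodes with a count against 1425, 1224, 817 and 824 without. At day 3, 196 and 167 of the barcodes with TXNIP held a single count. No cell type here is known to lack TXNIP, so free RNA among these counts has no measured background. The corneal differentiated-like cluster of day 1 had TXNIP in 0 of 609 barcodes, which allows a share of up to 0.493%, and 4 of 531 (0.753%), at median depths of 3585 and 3375 counts. At day 3 the corresponding cluster had it in 19.8% and 14.0%, at medians of 4899 and 4642. Over the cells of all clusters, PIP, prolactin-induced protein of exocrine secretions, had 2333 and 2002 CPM at day 1 and 475 and 559 CPM at day 3 in cells with TXNIP. Cells without TXNIP had 576 and 474 CPM and 124 and 152 CPM of PIP. PIP was higher in cells with TXNIP (log2 change 1.98, edgeR adjusted p = 3.71e-07). Genes were named from this comparison only if they went the same way in all 4 samples, so that agreement was set by the choice. IFITM1, an interferon-induced membrane protein, had 397 and 269 CPM at day 1 and 363 and 370 CPM at day 3 in cells with TXNIP, against 89.5 and 67.7 CPM and 125 and 101 CPM in cells without (log2 change 1.86, edgeR adjusted p = 2.64e-06).

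RARRES1, VMO1, LRG1, IDO1 and NUPR1, named by the same rule, were higher too, with log2 changes between 1.95 and 2.48. IDO1 degrades tryptophan, and LRG1 is a secreted leucine-rich glycoprotein. In all, edgeR called 158 genes higher (1.57%) and 60 lower (0.597%) out of 10055 tested (2.17% together). The lower ones included PTGS2, the inducible prostaglandin synthase, with 208 and 364 CPM at day 1 and 1002 and 971 CPM at day 3 in cells with TXNIP. Cells without it had 1832 and 1913 CPM and 1485 and 1420 CPM (log2 change -1.51, edgeR adjusted p = 0.0309). SQLE and CYP51A1, enzymes of cholesterol synthesis, had log2 changes of -1.05 and -1.01, and LY6D, a keratinocyte surface protein, -1.03.

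Depth and cell state moved with this split. Barcodes with TXNIP had median totals of 4070 and 3613 counts at day 1 against 3247 and 2911.5 for those without, and 4250 and 3906.5 against 4502 and 4193 at day 3. With barcodes thinned to 1000 counts before the split, 62 genes were called and 27.4% of them were higher in cells with TXNIP, against 72.5% of the 218. The calls for IDO1, LRG1 and NUPR1 were then lost, with log2 changes of 1.10, 0.92 and 0.34. Those for SQLE and CYP51A1 were lost as well, with log2 changes of -1.17 and -1.51 that were no smaller than before, and the calls for PIP, IFITM1, RARRES1, VMO1, PTGS2 and LY6D were kept. Without day 1 replicate 2, 87 genes were called, and without day 3 replicate 2, 122. PTGS2 and LY6D lost their calls without day 1 replicate 2, IDO1, SQLE and CYP51A1 without day 3 replicate 1, and LY6D, SQLE and CYP51A1 without day 3 replicate 2. DESeq2 did not call IDO1 and CYP51A1.

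Compared only within clusters (18 pairs of sums from 10 clusters), the differences were smaller and 110 of 2743 genes (4.01%) were called by edgeR, 47 higher (1.71%) and 63 lower (2.3%). These pairs share 4 libraries, so their p-values are too small. Lower in cells with TXNIP were the stress and wound keratins KRT6A, KRT16 and KRT17, with log2 changes of -0.60, -0.68 and -0.63. KRT14 had -0.74, and the cornified envelope precursor IVL -0.90. MYC, the growth regulator, had -0.47 and SERPINB2, an inhibitor of plasminogen activation, -0.86. Higher were AQP5, a water channel (0.79), PIP (0.85), FAM3D (0.86), IFITM1 (0.77), WFDC2 (0.70), the mucins MUC20 (0.74) and MUC1 (0.53), and KRT7 and KRT19 (0.44 each). The early response genes FOS (0.30) and ATF3 (0.34) were higher too. PTGS2 no longer passed (log2 change -0.30, edgeR adjusted p = 0.0992), and neither did LY6D (log2 change -0.24, edgeR adjusted p = 0.111). RARRES1, VMO1, LRG1, IDO1, NUPR1, SQLE and CYP51A1 were not tested within clusters. VMO1, RARRES1, PIP, IFITM1 and IDO1 were among the leading genes of the day 3 conjunctival-like cluster, where TXNIP was highest that day.

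The same split in the uninjured samples rested on 1113 and 1029 barcodes with TXNIP and 452 and 388 without. With 1 residual degree of freedom, edgeR called 630 genes higher (5.89%) and 607 lower (5.67%) out of 10702 (11.6% together), while DESeq2 called 176. KRT4 had 1032 and 1229 CPM in cells with TXNIP, against 155.9 and 263.2 CPM in cells without (log2 change 2.44), and KRT19 had 2836 and 2963 CPM, against 782 and 827 CPM (log2 change 1.85). The markers of the GPHA2-led cluster did not all go 1 way. Without TMM scaling, GPHA2 was lower in cells with TXNIP, at 203 and 206 CPM against 294 and 400 CPM. KRT14 was higher, at 1755 and 1518 CPM against 960 and 761 CPM, and so was KRT15, at 4950 and 4526 CPM against 2459 and 2022 CPM. PCK1 had 179 and 266 CPM in cells with TXNIP, against 570 and 605 CPM in cells without (log2 change -1.41). Within clusters its log2 change was -0.32 and did not pass (edgeR adjusted p = 0.0650). With barcodes thinned to 1000 counts before the split, 893 genes were called by edgeR. The log2 changes of KRT4 and KRT19 were then smaller, at 0.83 and 0.99, and that of PCK1 was larger, at -2.12.

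Within clusters 31 of 5238 genes (0.592%) were called by edgeR, 8 higher (0.153%) and 23 lower (0.439%). These 10 pairs come from 5 clusters of 2 libraries, so their p-values are too small. KRT19, KRT4, KRT14 and KRT15 were higher in cells with TXNIP, by 0.81, 0.59, 0.51 and 0.51 on the log2 scale. Lower were KRT17 (-0.91), PTGS2 (-0.65), MYC (-0.43) and the early response genes NR4A1 (-0.36), KLF6 (-0.35), ATF3 (-0.30) and KLF4 (-0.24). Of the genes called within clusters, 2 were higher with TXNIP both after injury and when uninjured (KRT19 and TNFSF10), 4.26% of the 47 and 25.0% of the 8. Lower in both were 4 genes (EMP1, KRT17, MYC and the unnamed ENSMFAG00000044185), 6.35% of the 63 and 17.4% of the 23. In opposite directions, ATF3 was higher with TXNIP after injury and lower when uninjured, and KRT14 was lower after injury and higher when uninjured; these differences were not tested.

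Uninjured cells with PCK1 (355 and 365 barcodes) were corneal differentiated-like on the whole. They had 28471 and 27729 CPM of KRT12, against 7681 and 6733 CPM in the 1210 and 1052 barcodes without PCK1. Without TMM scaling, KRT3 was higher too (7477 and 7400 against 2670 and 2746 CPM), and so was ALDH1A1 (4364 and 4125 against 1654 and 1527 CPM). KRT24 of the same marker list went the other way, at 816 and 1284 against 1210 and 1414 CPM. GPHA2 had 1.54 and 5.18 CPM against 339 and 401 CPM, and KRT14 57.7 and 100.7 CPM against 2205 and 2026 CPM. ETNPPL, a phospholyase of phosphoethanolamine, had 89.96 and 108.7 CPM against 17.4 and 15.4 CPM (log2 change 2.61), and PTGS2 1106 and 1136 CPM against 346 and 291 CPM (log2 change 1.82). Barcodes with PCK1 also had higher totals, with medians of 3591 and 4609 counts against 2117 and 2447. EdgeR called 1395 genes higher (12.8%) and 1562 lower (14.4%) out of 10861 (27.2% together), DESeq2 called 700, and 927 were called after thinning to 1000 counts.

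Within clusters 42 of 4740 genes (0.886%) were called by edgeR from 6 pairs, 18 higher (0.38%) and 24 lower (0.506%). The pairs come from 3 clusters of the same 2 libraries, so these p-values are too small as well. SNAI2, a transcription factor of epithelial plasticity, was higher in cells with PCK1 by 0.91, ETNPPL by 0.87, DKK3 by 0.64, PTGS2 by 0.53 and KRT12 by 0.33 on the log2 scale. KRT19 (-2.17), KRT14 (-1.59), KRT15 (-1.22) and KRT24 (-0.63) were lower, and so was TXNIP (-0.60, edgeR adjusted p = 3.72e-06). In uninjured cells PTGS2 was thus higher beside PCK1 and lower beside TXNIP, in both fits.

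The gene whose course over the 6 samples was nearest to that of TXNIP, among 6076 genes averaging at least 20 CPM, was KRT15, a keratin of basal progenitor cells (distance 1.91 between centred log2 profiles). KRT15 had 3537 and 3251 CPM when uninjured, 309 and 283 CPM at day 1, and 516 and 506 CPM at day 3. DBP, a transcription factor of the circadian clock output, followed with 156 and 160 CPM, 14.3 and 13.3 CPM, and 24.2 and 21.6 CPM. PIK3IP1, an inhibitor of PI3 kinase, had 45.6 and 49.0 CPM, 3.97 and 5.83 CPM, and 13.4 and 8.83 CPM. VAV3 and the unnamed ENSMFAG00000044879 were next. At day 3 against day 1 the log2 changes of these 5 genes were 0.72 to 2.09, and that of TXNIP was 2.41. They were picked for this course, so no test is given.

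Nearest to PCK1 was GPHA2 (distance 1.21), with 194 and 215 CPM when uninjured, 1.32 and 2.50 CPM at day 1 and no row at day 3. Missing rows entered these distances as 0, so at day 3 the nearness of PCK1, GPHA2 and PENK rests on rows without a known count. PENK, CYP26A1, BBOX1 and LAMB4 followed at distances of 3.70 to 5.16. CYP26A1, which degrades retinoic acid, had 460 and 517 CPM, 50.2 and 78.0 CPM, and 14.7 and 11.5 CPM, lowest at day 3. PENK, the proenkephalin gene, had 93.5 and 78.0 CPM, 20.9 and 19.2 CPM and no row at day 3. By this measure GPHA2 and PCK1 were near each other across days, while their highest levels when uninjured lay in different clusters.

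The genes around TXNIP and PCK1 in their pathways were taken as 7 lists holding 109 genes besides TXNIP and PCK1, of which 81 were tested. At day 1 against uninjured, 20 of the 81 rose (24.7%) and 32 fell (39.5%), beside 30.5% and 31.7% of all 12294 tested genes. At day 3 against uninjured, 18 rose (22.2%) and 40 fell (49.4%), beside 28.8% and 26.4%. PPARGC1A, ZBTB16, MT2A, SLC2A4, KLF15, NR2F1 and PDK4 of the lists had no row at day 3. All of these but MT2A and SLC2A4 had none at day 1 either. Where such genes were tested, missing rows entered as 0, so the counts of fallen members rest in part on rows without a known count. Scaled to library totals alone, 14 rose and 49 fell at day 1, and 7 rose and 55 fell at day 3. Over all genes called, 49.1% at day 1 and 52.2% at day 3 were higher with TMM, and 29.1% and 24.2% with library totals alone. The median log2 change of the lists was -0.23 at day 1 and -0.30 at day 3, beside -0.06 and -0.03 for all genes. With totals alone the medians over all genes were -0.40 and -0.46, so directions are relative to TMM scaling.

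Of the thioredoxin system and the arrestin paralogues of TXNIP, 3 of 13 rose and 6 fell at day 1. TXNRD1, the cytosolic thioredoxin reductase, rose to 199 and 210 CPM at day 1, against 28.5 and 26.5 CPM when uninjured (log2 change 2.90, edgeR adjusted p = 3.81e-10). ARRDC4, the closest paralogue of TXNIP and like it a glucose-responsive gene, fell to 10.6 and 9.99 CPM at day 1, against 22.9 and 20.8 CPM (log2 change -1.08, edgeR adjusted p = 3.68e-04). At day 3 ARRDC4 had 18.4 and 25.0 CPM, overlapping the uninjured samples (log2 change -0.01). The mitochondrial genes TXNRD2 and TXN2 fell at day 1, with log2 changes of -1.21 and -0.71. Of the same 13 genes, 5 rose and 3 fell at day 3, or 1 and 8 with library totals alone.

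Of the genes of glucose sensing and uptake, 5 of 10 rose and 2 fell at day 1 (4 and 3 with library totals alone), with a median log2 change of 0.58. HK2, a hexokinase, rose to 137 and 147 CPM at day 1, against 49.4 and 51.5 CPM when uninjured (log2 change 1.49, edgeR adjusted p = 3.35e-08). PFKFB3, which makes the activator of phosphofructokinase, rose to 68.5 and 87.4 CPM, against 33.7 and 39.9 CPM. SLC2A1, which encodes GLUT1, the transporter that TXNIP acts on, had means of 272 CPM at day 1 and 482 CPM at day 3, against 184 CPM when uninjured (log2 changes 0.56 and 1.38). SLC2A1 lies outside the rule for named genes and was chosen with its values known, as the target of TXNIP. Of the same 10 genes, 3 rose and 3 fell at day 3, or 1 and 5 with library totals alone. SLC2A4 counts among those that fell, with 5 and 7 counts when uninjured and no row at day 3, so its call rests on missing rows. The day 3 count that rose was 1 without uninjured replicate 1, and 1 rose and 1 fell without day 3 replicate 1. MLXIP, which encodes MondoA, had 6.17 and 5.55 CPM at day 1 against 3.39 and 2.09 CPM when uninjured (edgeR adjusted p = 0.0167). That call was lost with DESeq2, with library totals alone, without uninjured replicate 2 and without day 1 replicate 1.

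Of the genes of gluconeogenesis and phosphoenolpyruvate metabolism, 3 of 12 rose and 3 fell at day 1, and 4 rose and 4 fell at day 3. With library totals alone it was 1 and 6, and 1 and 5. GPT2, a mitochondrial alanine aminotransferase, fell to 5.73 and 6.10 CPM at day 1, against 28.1 and 24.4 CPM when uninjured (log2 change -2.14, edgeR adjusted p = 9.45e-07). SLC37A4, the glucose-6-phosphate transporter, fell to 3.97 and 4.16 CPM, against 15.5 and 12.7 CPM (log2 change -1.79). GOT1, the cytosolic aspartate aminotransferase, fell as well (-0.85), while MDH2, the mitochondrial malate dehydrogenase, rose (0.93). PCK2, the mitochondrial paralogue of PCK1, averaged 8.24 CPM at day 1 and 9.48 CPM at day 3, against 8.41 CPM when uninjured, and passed in neither comparison (edgeR adjusted p = 0.891 and 0.531). PCK2 and FBP1, the fructose bisphosphatase with 11.3 and 12.6 against 12.4 CPM, were chosen outside the rule, as the nearest enzymes of the pathway.

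Of the transcriptional regulators of PCK1, 5 of 18 rose and 8 fell at day 1, and 2 rose and 11 fell at day 3. With library totals alone it was 2 and 12, and 0 and 15. At day 3, 1 rose without uninjured replicate 1, uninjured replicate 2 or day 3 replicate 1, and 0 rose without day 3 replicate 2. PPARGC1A, which encodes PGC-1alpha, had no row in the 4 injured gene tables, against 6.77 and 7.33 CPM when uninjured. Its missing rows entered the fit as 0, and its call at day 1 rests on them. RARB, a retinoic acid receptor, fell to 5.51 and 4.72 CPM at day 1, against 39.9 and 42.4 CPM when uninjured (log2 change -2.99, edgeR adjusted p = 4.79e-08). CEBPD, a CCAAT-binding factor, fell to 150 and 139 CPM at day 1 and to 88.4 and 85.1 CPM at day 3, against 491 and 458 CPM. NR3C1, the glucocorticoid receptor, had means of 25.4 CPM at day 1 and 27.9 CPM at day 3, against 49.9 CPM (log2 changes -0.97 and -0.84); it was chosen outside the rule, as the receptor of the next list.

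The glucocorticoid-responsive genes and the FOXO and fasting targets had the highest shares of fallen members. Of the 14 glucocorticoid-responsive genes, 9 fell and 3 rose at day 1, and 12 fell and 1 rose at day 3, with median log2 changes of -0.96 and -1.75. The mitochondrial share of counts was also lowest at day 3 and highest when uninjured, and its part in these changes was not tested. TSC22D3, which encodes the glucocorticoid-induced leucine zipper, fell to 19.2 and 23.0 CPM at day 1 and 15.2 and 15.4 CPM at day 3, against 118 and 112 CPM when uninjured (log2 changes -2.46 and -2.90, edgeR adjusted p = 4.91e-09 and 2.16e-09). PER1, a circadian clock gene, fell to 24.5 and 25.0 CPM at day 1 and 33.4 and 29.9 CPM at day 3, against 83.5 and 102 CPM. ZBTB16, a zinc finger transcription factor, had no row after injury, against 8.57 and 5.93 CPM when uninjured. Its missing rows entered the fit as 0, and its call at day 1 rests on them. MT2A, a metallothionein, counts among the 9 at day 1, with 10 and 0 counts against 27 and 21 when uninjured; that call was lost in DESeq2, with the replicate block and without any 1 sample other than day 1 replicate 1. The 3 that rose at day 1 were SGK1, ERRFI1 and NFKBIA, with means of 460, 152 and 598 CPM against 236, 69.4 and 226 CPM when uninjured.

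Of the 10 FOXO and fasting targets, 7 fell and 1 rose at both days (4 fell at day 3 in DESeq2), with median log2 changes of -1.28 at day 1 and -0.60 at day 3. Beside PIK3IP1, CITED2 fell to 10.4 and 17.5 CPM at day 1 and to 34.1 and 23.5 CPM at day 3, against 107 and 107 CPM when uninjured (log2 changes -2.98 and -1.89). CITED2 is a transcriptional coregulator, and SESN1 and SESN3 are sestrins, stress-induced inhibitors of mTORC1. SESN1 had 6.17 and 4.44 CPM at day 1 and 17.5 and 16.7 CPM at day 3, against 25.5 and 25.5 CPM, and SESN3 8.59 and 8.32 CPM and 25.1 and 29.7 CPM, against 38.3 and 33.0 CPM. Between day 1 and day 3, 6 of the 10 rose and 2 fell, beside 30.5% of all genes higher and 28.8% lower. Of the 7 tested genes of glyceroneogenesis and lipid handling, 0 passed at day 1 in edgeR, with 0 at an unadjusted p under 0.05 and 0 in DESeq2, though 4 fell with library totals alone. At day 3, 2 of the 7 rose and 2 fell, or 1 fell without uninjured replicate 2 and without day 3 replicate 2.

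**Figure D5:**
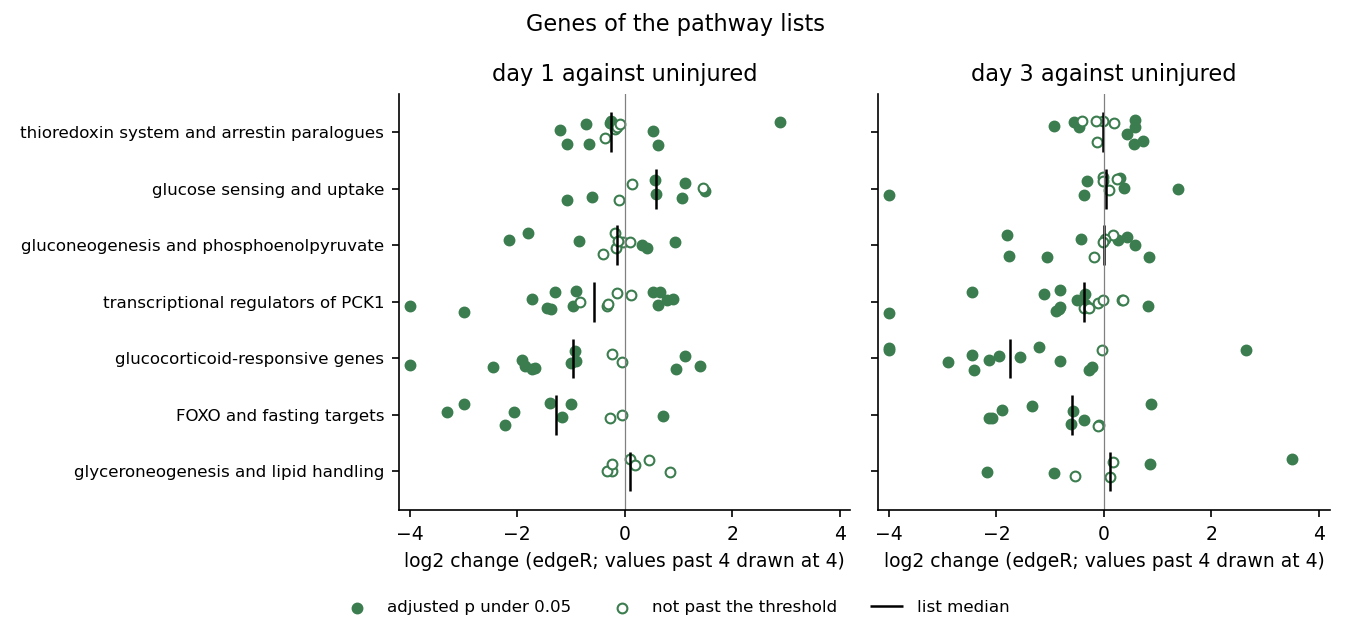
Log2 change of each tested gene of the 7 pathway lists at day 1 (left) and day 3 (right) against uninjured, TXNIP and PCK1 left out; filled points passed edgeR's adjusted p of 0.05, vertical lines are list medians, and changes past -4 are drawn at -4. The glucocorticoid-responsive list has medians of -0.96 and -1.75, and the FOXO and fasting list -1.28 and -0.60. Genes without a row in a sample entered as 0.

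The isoform tables gave the same order of days. TXNIP had 1485 and 1465 isoform counts when uninjured, 31 and 47 at day 1, and 246 and 210 at day 3, which is 42.6% and 41.5%, 39.7% and 77.0%, and 59.6% and 59.7% of its gene counts. In the uninjured samples 1 isoform that matches an annotated transcript in full took 87.3% and 94.3% of them, and a second such isoform 10.6% and 3.48%. Isoforms matching an annotated transcript only in part took 1.48% and 1.71%. After injury a single full-match isoform was listed in each sample.

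PCK1 had 11 and 16 isoform counts at day 1, against 1060 and 1492 when uninjured. One full-match isoform took 98.2% and 96.4% of the uninjured counts, and new combinations of known splice sites took 1.79% and 2.95%. The day 1 counts were all of a full-match isoform. Day 1 replicate 2 and the day 3 tables name isoforms in another system than the other 3 tables, so isoform shares are not compared between days.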

How the data were processed

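Single-cell gene tables of 6 samples were used as deposited, with counts per gene and cell barcode. Per the labels, libraries came from 10x Genomics capture and HIT-scISOseq; Cell Ranger is named in the submitters' processing notes. The sources used here give no version, no genome build and nothing on collapsing reads of 1 molecule. The authors also deposited isoform tables, in counts per isoform and barcode, used here for isoforms and for PCK1 at day 3. Counts were summed per sample, filtered with edgeR's filterByExpr, scaled by TMM and fitted over all 6 samples with edgeR 4.0.16's quasi-likelihood test in R 4.3.3 (Benjamini-Hochberg, threshold 0.05). A gene without a row in a sample entered the fits and distances as a count of 0. Cells with and without a count of a gene were compared as sums per sample, with sample as a term and the gene that set the split left out of the table.

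Barcodes of each day were clustered with scanpy 1.11.5 and leidenalg 0.10.2 (2000 variable genes, 30 principal components, 15 neighbours, resolution 0.5) without TXNIP and PCK1. No barcode was removed; Scrublet marked 66 barcodes (0.836%) as doublets, and fits without them were alternatives. Thinning drew 1000 counts per barcode and left out 369 shallower ones. Fits were tested on simulated data. The fit's p-values for TXNIP and PCK1 between days are not printed, since their injured levels chose them. TXNIP, PCK1 and the gene and marker lists were chosen with earlier results of these data known. Named genes were the 4 list members with the largest called changes at day 1 in each list, the 5 nearest genes by day and by cluster, and the 8 highest and 8 lowest called genes of each cell comparison. Genes named beyond this, and those from the comparisons within clusters, were chosen after their values were seen. Alternatives were DESeq2 1.42.0, library totals alone, no filter on low counts, a replicate block, each sample left out, no doublets, no barcodes under 500 counts, thinning, and comparison within clusters, which was added after seeing the data.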

Additional observations from a re-analysis of the deposited data

How the results depend on the processing

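With library totals alone, log2 changes against uninjured were -5.60 for TXNIP at day 1, -3.27 for TXNIP at day 3 and -6.20 for PCK1 at day 1, and 49 list members fell at day 1 and 7 rose at day 3; 29.1% and 24.2% of called genes were then higher, against 49.1% and 52.2% with TMM. With DESeq2, 4213 genes were called at day 3 against uninjured, 25 list members fell there and 19 fell between day 1 and day 3, and 176 and 700 genes were called for cells with TXNIP and with PCK1 when uninjured. Thinning gave 62 genes for TXNIP after injury and 927 for PCK1; no filter gave 464 for TXNIP after injury. Within clusters these counts were 110 for TXNIP after injury, and 31 for TXNIP and 42 for PCK1 when uninjured, and GSTA3, higher with TXNIP when uninjured, reversed to -0.12. Leaving out each sample gave -5.34 to -5.17 for TXNIP at day 1, -2.93 to -2.76 at day 3, -6.09 to -5.61 for PCK1 at day 1, 2.34 to 2.48 for TXNIP at day 3 against day 1, and 87 to 221 genes for TXNIP after injury. The cause was not tested. Same-numbered replicates did not deviate together (correlations of 0.0209, 0.0303 and 0.05001 over 12294 genes). With a single difference per group, this cannot settle whether they share an animal or a batch. With the replicate block TXNIP at day 3 against day 1 was 2.41. In the comparisons of day 1 with uninjured, day 3 with uninjured and day 3 with day 1, 7302, 6421 and 6959 genes were then called. With 2 uninjured samples, leaving 1 out of the uninjured cell comparisons leaves no residual degrees of freedom, so it was not run. At day 1 the levels of both genes rest on 18 to 78 counts per sample, which limits what can be said by cluster.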
